A study of Mus musculus with 16 samples.

Results

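The 9 genes described here, *Epcam*, *Cdh1*, *Krt8*, *Krt18*, *Krt5*, *Krt15*, *Trp63*, *Esrp1* and *Grhl3*, mark or regulate the epithelium that covers the embryonic face. They were chosen by name and not by a rule on a measured value, though with earlier results of these data known. All 9 were found among the 15451 genes with a gene value and the 35639 genes with a TPM (a level normalised for transcript length and for sequencing depth). The study asked what the loss of *Srf*, which encodes serum response factor, does to the neural crest of the face. RNA of the mandible and of the frontonasal prominence (FNP, the medial and lateral nasal processes) was sequenced from 8 mouse embryos at E11.5, which gave 16 libraries, 1 per tissue and embryo. The 4 mutants, embryos 3, 4, 5 and 6, had the genotype Srf flox/flox; Wnt1-Cre. Control embryos 1 and 7 carried Wnt1-Cre with Srf flox/+, whereas controls 2 (Srf flox/flox) and 8 (Srf flox/+) lacked the Cre, so every embryo carried at least 1 floxed allele. Embryos 6, 7 and 8 formed litter 2, and embryos 1 to 5 formed litter 1, which left 1 mutant in litter 2 and 3 mutants in litter 1. *Wnt1-Cre* acts in neural crest cells, and the libraries hold whole dissected tissue, so the surface ectoderm in them is a compartment that keeps *Srf*. Values below are given in the order of embryos 3, 4, 5 and 6 for mutants and 1, 2, 7 and 8 for controls.

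At this stage the face is a core of neural crest mesenchyme under a thin sheet of ectoderm. Epithelial cells of that sheet are held together by E-cadherin junctions, and a simple epithelium fills its cytoskeleton with the keratin pair encoded by *Krt8* and *Krt18*. As ectoderm stratifies towards epidermis or oral mucosa, cells under the control of the p63 protein form a basal layer with keratins such as those of *Krt5* and *Krt15*. Pharyngeal endoderm and the nasal placode are epithelia as well and also use *Epcam*, *Cdh1*, *Krt8* and *Krt18*, so these genes mark epithelium and not surface ectoderm alone.

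Promoter windows, from 250 bases before to 50 bases after the start site, were read from RefSeq for GRCm38.p6, which had an entry for *Epcam*, *Krt8*, *Krt18*, *Krt5* and *Grhl3*. The windows of *Krt8* and *Krt18* are shown because these neighbours moved together, that of *Krt5* because it moved the other way, and that of *Epcam* because it had the largest fall in the mandible among the 9 genes. Capitals mark CAGGTG and its reverse complement CACCTG, the E-box form that Snail and Zeb repressors bind, and ACCGGT, the core of the grainyhead motif. The windows lie at chr17:87635729-87636028 on the plus strand for *Epcam*, chr15:102004293-102004592 on the minus strand for *Krt8*, chr15:102027966-102028265 on the plus strand for *Krt18* and chr15:101712856-101713155 on the minus strand for *Krt5*.
Epcam: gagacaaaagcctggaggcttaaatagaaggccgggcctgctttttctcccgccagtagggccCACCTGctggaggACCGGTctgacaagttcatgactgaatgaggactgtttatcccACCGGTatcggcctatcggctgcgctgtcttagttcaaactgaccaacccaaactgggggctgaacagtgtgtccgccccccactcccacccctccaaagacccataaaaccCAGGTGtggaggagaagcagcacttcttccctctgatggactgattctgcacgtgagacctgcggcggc
Krt8: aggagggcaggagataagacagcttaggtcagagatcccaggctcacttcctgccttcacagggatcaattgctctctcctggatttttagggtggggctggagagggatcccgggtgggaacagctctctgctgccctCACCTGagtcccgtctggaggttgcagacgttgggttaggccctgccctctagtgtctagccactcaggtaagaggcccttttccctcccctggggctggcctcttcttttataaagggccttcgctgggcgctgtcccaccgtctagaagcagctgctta
Krt18: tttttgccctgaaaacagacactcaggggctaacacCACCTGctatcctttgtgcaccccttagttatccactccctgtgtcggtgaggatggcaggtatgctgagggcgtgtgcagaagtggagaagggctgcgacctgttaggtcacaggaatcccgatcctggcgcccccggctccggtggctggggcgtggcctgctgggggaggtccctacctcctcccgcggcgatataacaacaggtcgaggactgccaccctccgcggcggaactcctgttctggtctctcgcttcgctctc
Krt5: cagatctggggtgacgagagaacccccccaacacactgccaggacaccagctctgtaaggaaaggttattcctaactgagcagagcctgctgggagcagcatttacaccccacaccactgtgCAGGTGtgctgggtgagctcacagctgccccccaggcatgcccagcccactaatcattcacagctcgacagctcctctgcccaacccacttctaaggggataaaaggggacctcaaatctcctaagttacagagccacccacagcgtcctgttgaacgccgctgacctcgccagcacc

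Each of the 5 windows held the E-box letters on one strand or the other, as did 20.3% of the 32544 windows of this length in the table. *Epcam* had 2 such matches, at -187 and -19 from the start site, *Grhl3* had 2, at -19 and 8, and the 3 keratin genes had 1 each, at -111 in *Krt8*, -214 in *Krt18* and -128 in *Krt5*. The grainyhead core, a motif picked with the sequences in view, was found 2 times in the *Epcam* window, at -174 and -131, and in none of the other 4, against 2.33% of all windows. The CArG box, the element that serum response factor binds, matched in none of the 5 windows and in 1.64% of all windows. Both strands were searched and no match overlapped another. These are matches of letters in a short window and say nothing of binding.

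*Srf* itself separated the genotypes in both tissues. It stood at 11.6, 14.1, 12.5 and 10.8 TPM in mutant mandibles, against 48.1, 65.9, 34.4 and 56.9 TPM in control mandibles. It stood at 11.8, 14.7, 13.2 and 13.1 TPM in mutant FNPs, against 48.9, 75.2, 34.7 and 56.5 TPM in control FNPs. The groups did not overlap in either tissue (two-sided exact permutation test, p = 0.0286 in each, the smallest that 70 arrangements of 4 against 4 allow). The labels of the tissues matched their markers: the olfactory regulators *Six3* and *Sp8* stood at 0 to 0.294 TPM in mandibles and 16.1 to 29.4 TPM in FNPs, and *Pitx1*, a transcription factor of the mandibular arch and oral ectoderm, at 249 to 378 TPM in mandibles and 18.1 to 35.8 TPM in FNPs. The deposited gene values of a library summed to 10226942 to 11185674 after the scaling by the authors, so the reads behind one gene are unknown and the spread between embryos sets the precision.

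The 9 genes were all detected in all 16 libraries, and 8 of them differed between the tissues while none differed past the threshold between mutants and controls. Over all genes tested, 29.7% were called between the tissues and 1.33% between mutants and controls in both tissues together. No call by genotype among 9 genes is therefore near the share of all genes. In the mandible the mean levels ran from *Epcam* at 35.3 ± 4.76 TPM through *Krt5*, *Krt18*, *Krt8*, *Trp63*, *Krt15*, *Cdh1* and *Esrp1* to *Grhl3* at 9.40 ± 1.41 TPM (SD, n = 8). Each gene's range met that of the next in this order except for *Esrp1* and *Grhl3*. In the FNP the order was *Epcam* at 84.7 ± 5.78 TPM, then *Krt18*, *Krt8*, *Esrp1*, *Cdh1*, *Trp63*, *Krt5*, *Grhl3* and *Krt15* at 5.42 ± 1.85 TPM (SD, n = 8), and here only *Krt8* and *Esrp1* had ranges apart. The summed level of the 9 genes was 212 to 244 TPM in mutant mandibles, 197 to 239 TPM in control mandibles, 279 to 332 TPM in mutant FNPs and 275 to 336 TPM in control FNPs.

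**Figure D1:**
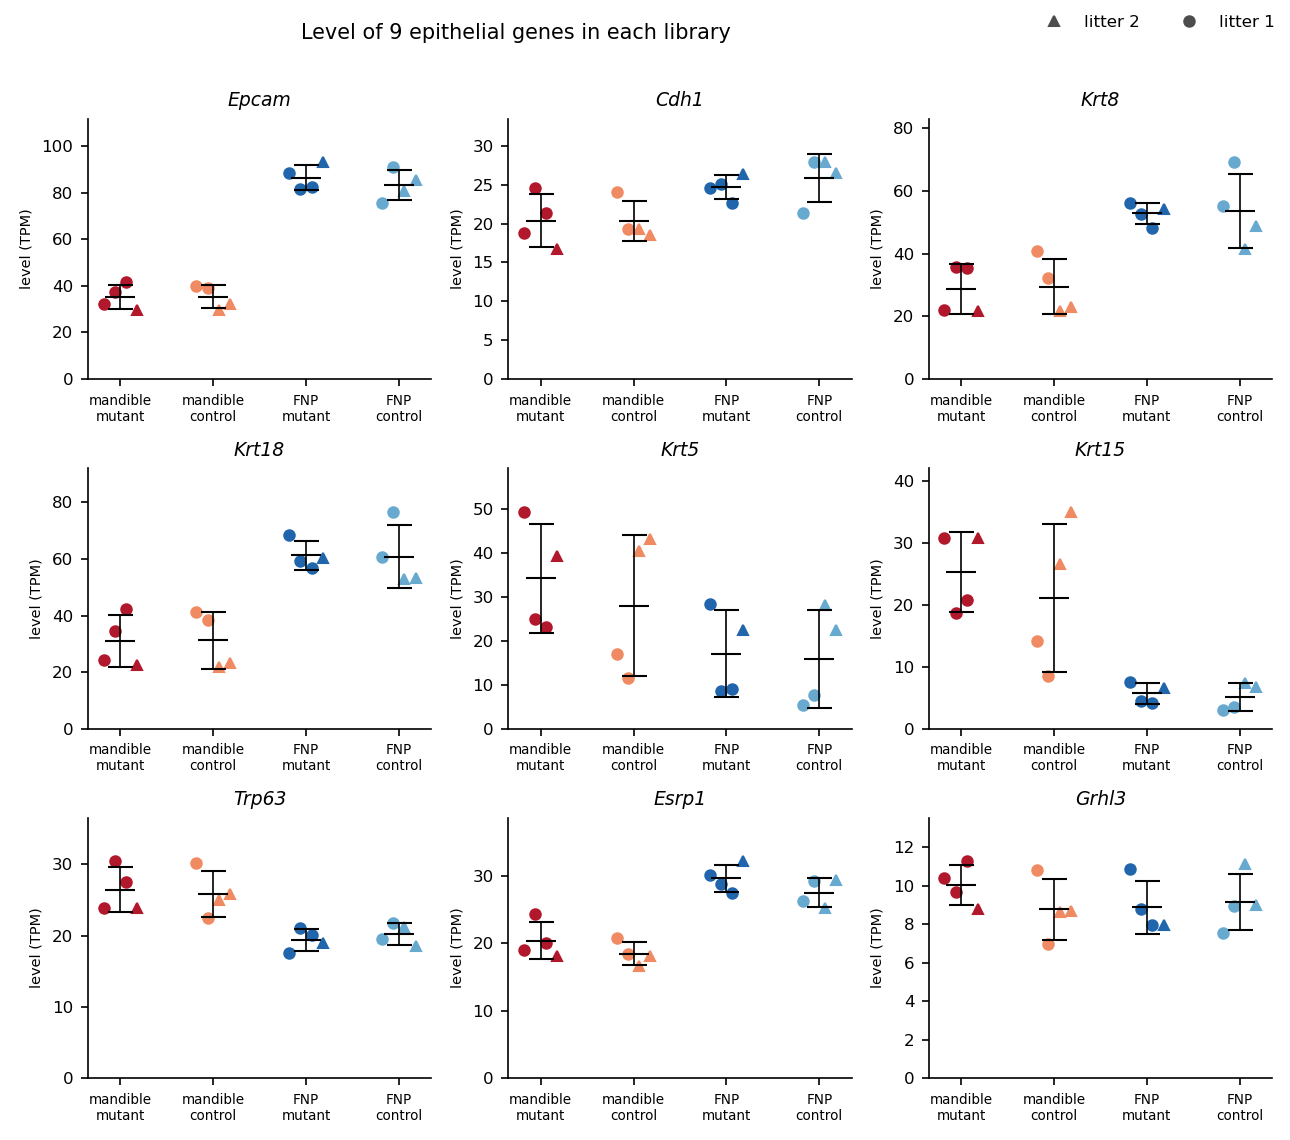
Level of each of the 9 genes in TPM (vertical axes, from 0) in the 4 groups of 4 libraries (horizontal axes). Triangles are libraries of litter 2, circles those of litter 1, and black bars give the mean and SD. The tissues stand apart for *Epcam*, *Krt8*, *Krt18*, *Krt15*, *Trp63* and *Esrp1*, while mutants and controls of 1 tissue overlap for all 9 genes.

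Mandible and FNP were compared over all 16 libraries with limma on log2(value + 0.5), with litter and genotype class as covariates, and calls were made where the p-value, adjusted over 14630 genes by the Benjamini-Hochberg method, was 0.05 or less. Of the 9 genes, 8 were called, 3 higher and 5 lower in the mandible, where 29.7% of all genes were called, 11.9% higher and 17.8% lower. On the gene values the tissues did not overlap for 6 of the 9, 2 higher and 4 lower, against 8.96% of all genes, 2.78% higher and 6.18% lower. In libraries of whole tissue, a smaller share of epithelial cells and less RNA of the gene per epithelial cell cannot be told apart.

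The adhesion genes *Epcam* and *Cdh1* were both lower in the mandible, to very different degrees. *Epcam*, which encodes a surface glycoprotein of simple epithelia, stood at 32.2, 37.2, 41.7 and 29.8 TPM in mutant mandibles and 39.9, 39.1, 29.8 and 32.4 TPM in control mandibles. FNPs had 88.3, 81.5, 82.4 and 93.1 TPM in mutants and 75.7, 90.8, 80.5 and 85.4 TPM in controls. The highest mandible lay well below the lowest FNP, and the mandible was lower in 8 of 8 embryos. The log2 fold change of *Epcam* was -1.28 (SE 0.0854), a 2.43-fold lower level (limma, adjusted p = 3.54e-09).

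*Cdh1*, which encodes E-cadherin, stood at 18.8, 24.6, 21.4 and 16.8 TPM in mutant mandibles and 24.0, 19.3, 19.3 and 18.5 TPM in control mandibles. FNPs had 24.5, 25.1, 22.6 and 26.4 TPM in mutants and 21.4, 27.9, 27.8 and 26.5 TPM in controls. The tissues overlapped, and the mandible was lower in 7 of 8 embryos, embryo 1 being the exception. *Cdh1* fell by 0.32 on the log2 scale in the mandible (SE 0.0789, limma adjusted p = 0.00551), and with embryos of litter 1 alone the change was -0.17 with an adjusted p of 0.253, above the threshold.

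The simple keratins *Krt8* and *Krt18*, whose products polymerise with each other, were lower in the mandible by nearly the same amount. Their genes are neighbours on chromosome 15 of GRCm38, *Krt8* from 101996698 to 102004482 on the minus strand and *Krt18* from 102028180 to 102032027 on the plus strand, 23698 bases apart. *Krt8* stood at 21.9, 35.7, 35.4 and 21.7 TPM in mutant mandibles and 40.7, 32.2, 21.8 and 23.1 TPM in control mandibles. FNP levels were 56.2, 52.8, 48.4 and 54.2 TPM in mutants and 55.2, 69.2, 41.4 and 49.0 TPM in controls. The highest mandible, of control embryo 1, was just below the lowest FNP, of control embryo 7, so the tissues did not overlap. *Krt8* was 1.87-fold lower in the mandible, a log2 fold change of -0.90 (SE 0.107, limma adjusted p = 4.47e-06), and lower in 8 of 8 embryos.

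*Krt18* stood at 24.4, 34.5, 42.2 and 22.5 TPM in mutant mandibles and 41.3, 38.4, 22.0 and 23.1 TPM in control mandibles. In FNPs it had 68.6, 59.1, 56.8 and 60.3 TPM in mutants and 60.6, 76.7, 52.8 and 53.1 TPM in controls. Again no mandible reached an FNP. *Krt18* was 2.02-fold lower in the mandible, a log2 fold change of -1.01 (SE 0.106, limma adjusted p = 1.00e-06), in 8 of 8 embryos. In mandibles of both genotype classes the levels of this pair fell into a lower set, of embryos 3, 6, 7 and 8, and a higher set, of embryos 1, 2, 4 and 5, which is taken up with litter below.

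The basal keratins went the other way. *Krt5*, a keratin of basal cells of stratified epithelia, stood at 49.5, 25.1, 23.2 and 39.4 TPM in mutant mandibles and 17.0, 11.6, 40.6 and 43.2 TPM in control mandibles. In FNPs it had 28.4, 8.56, 9.07 and 22.6 TPM in mutants and 5.42, 7.73, 28.2 and 22.6 TPM in controls. Levels varied several-fold among embryos of 1 tissue and the tissues overlapped, yet the mandible was higher in 8 of 8 embryos. *Krt5* was 2.04-fold higher in the mandible, a log2 fold change of 1.03 (SE 0.261, limma adjusted p = 0.00606), and without the litter covariate the adjusted p was 0.0574, above the threshold. These fits did not pair the tissues of an embryo. With embryo as a fixed term the same change had an SE of 0.126 (limma adjusted p = 5.34e-05).

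*Krt15*, a keratin of the same layer, had the largest tissue difference of the 9 genes. It stood at 30.9, 18.7, 20.8 and 30.9 TPM in mutant mandibles and 14.1, 8.55, 26.6 and 35.1 TPM in control mandibles. In FNPs it had 7.61, 4.54, 4.10 and 6.56 TPM in mutants and 2.99, 3.44, 7.34 and 6.78 TPM in controls. The lowest mandible, of control embryo 2, was above the highest FNP, of mutant embryo 3. *Krt15* was 4.14-fold higher in the mandible, a log2 fold change of 2.05 (SE 0.179, limma adjusted p = 1.05e-07), in 8 of 8 embryos.

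Among the regulators, *Trp63*, which encodes p63, the master regulator of stratified epithelium, was modestly higher in the mandible. It stood at 23.9, 30.4, 27.5 and 23.9 TPM in mutant mandibles and 30.2, 22.4, 25.0 and 25.8 TPM in control mandibles. FNPs had 17.5, 21.1, 20.2 and 18.9 TPM in mutants and 19.5, 21.7, 21.2 and 18.5 TPM in controls. Every mandible exceeded every FNP, though in control embryo 2 the 2 tissues nearly met. *Trp63* was 1.32-fold higher in the mandible, a log2 fold change of 0.40 (SE 0.0644, limma adjusted p = 0.000127).

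*Esrp1*, which encodes an RNA-binding protein that sets epithelial splicing, was lower in the mandible. It stood at 19.0, 24.3, 20.1 and 18.2 TPM in mutant mandibles and 20.8, 18.4, 16.7 and 18.1 TPM in control mandibles. Levels in FNPs were 30.1, 28.8, 27.5 and 32.2 TPM in mutants and 26.2, 29.2, 25.3 and 29.4 TPM in controls. No mandible reached an FNP. *Esrp1* was 1.47-fold lower in the mandible, a log2 fold change of -0.56 (SE 0.0593, limma adjusted p = 1.15e-06), in 8 of 8 embryos.

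*Grhl3*, which encodes a grainyhead transcription factor of the epidermal barrier and of the periderm, was the 1 gene of the 9 that was not called between the tissues. It stood at 10.4, 9.67, 11.3 and 8.79 TPM in mutant mandibles and 10.8, 6.98, 8.61 and 8.70 TPM in control mandibles. In FNPs it had 10.9, 8.77, 7.95 and 7.97 TPM in mutants and 7.57, 8.95, 11.1 and 9.02 TPM in controls. The tissues overlapped throughout, with the mandible higher in 4 embryos and lower in 4. Its log2 fold change of 0.06 had a 95% interval from -0.16 to 0.28 (limma adjusted p = 0.710).

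**Figure D2:**
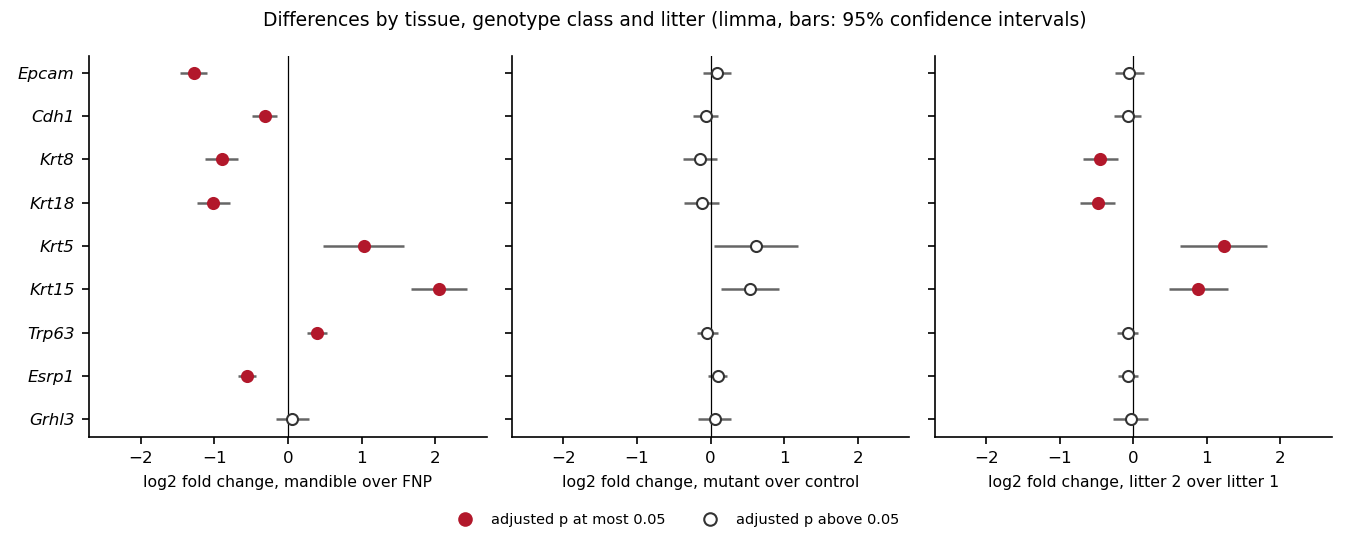
Log2 fold changes of the 9 genes (horizontal axes) from limma for mandible over FNP, mutant over control in both tissues together, and litter 2 over litter 1, with bars for 95% confidence intervals and filled points for an adjusted p of at most 0.05. By tissue 8 genes are filled, by genotype class none, and by litter the 4 keratin genes, where 29.7%, 1.33% and 26.1% of all genes were called.

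The tissue difference was also fitted within each genotype class, from 1 model with litter as covariate. In mutants, where 21% of all genes were called, 8.82% higher and 12.1% lower, 3 of the 9 genes were called higher and 4 lower in the mandible, and in controls, where 16.8% were called, 5.67% higher and 11.2% lower, 2 were called higher and 5 lower. *Epcam*, *Krt8*, *Krt18*, *Esrp1*, *Krt15* and *Trp63* were called in both classes, with log2 fold changes of -1.36 in mutants and -1.20 in controls for *Epcam*, and of 2.17 in mutants and 1.93 in controls for *Krt15*. *Krt5* was called in mutants (1.14, limma adjusted p = 0.0431) and not in controls (0.92, limma adjusted p = 0.124). *Cdh1* was called in controls (-0.35, limma adjusted p = 0.0439) and not in mutants (-0.28, limma adjusted p = 0.104). With both tissues of an embryo paired by a block for embryo, *Krt5* was called in controls as well (limma adjusted p = 0.00441), where its mandible was higher in 4 of 4 embryos, and *Cdh1* was not called in controls (limma adjusted p = 0.0838). In the unpaired model these calls lay at the threshold: without embryo 1, 2, 4, 5, 7 or 8 *Krt5* in mutants had an adjusted p of 0.0513 to 0.166, without embryo 2, 3, 5, 7 or 8 *Cdh1* in controls had one of 0.0540 to 0.224, *Krt5* in controls reached 0.00395 without embryo 3, *Cdh1* in mutants reached 0.0442 without embryo 1, and *Trp63* in controls had 0.136 without embryo 1 and 0.103 without embryo 8. The test of the difference itself, the interaction of tissue and genotype class, called none of the 9 genes and 0% of all genes. None of the 9 had an unadjusted p under 0.05 there, against 4.36% of all genes, and the interaction of *Krt5* was 0.23 with a 95% interval from -0.91 to 1.37 on the log2 scale.

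Among other epithelial genes, most of those for cell junctions were lower in the mandible. Of 25 genes for epithelial adhesion and polarity, 19 were lower and 2 higher in the mandible, with a median log2 fold change of -0.62, against -0.00 over all genes tested. The counts of this and the following lists stand beside the 11.9% of all genes that were higher and the 17.8% that were lower, and some, such as the 3 called of 10 genes of the basal lamina, were near that share. The tight junction genes led these, with *Cldn3* at 2.43 to 4.20 TPM in mandibles and 16.2 to 24.8 TPM in FNPs (log2 fold change -2.55), *Ocln* at -1.59 and *Cldn6* at -1.35, together with the epithelial sorting adaptor gene *Ap1m2* at -0.97 (limma, adjusted p 7.81e-12 to 4.59e-08). Among those that were higher was *Perp*, which encodes a desmosomal membrane protein under p63 control, at 0.54 (limma adjusted p = 2.18e-05). The desmosome genes *Dsp* at 0.07 and *Dsg2* at -0.04 were not called. *Perp*, chosen also for its likeness to the 9 genes, stood at 28.5 to 38.5 TPM in mandibles and 18.0 to 27.7 TPM in FNPs. *Dsp*, *Dsg2* and *Krt1* were named after their values were seen.

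Of 13 tested regulators of epithelial transcription and splicing, 5 were lower and 1 was higher in the mandible, with a median of -0.34. *Tfap2b*, whose product acts in facial ectoderm and neural crest, stood at 11.1 to 16.0 TPM in mandibles and 63.0 to 86.3 TPM in FNPs (log2 fold change -2.49, limma adjusted p = 5.70e-13). The grainyhead gene *Grhl2*, which controls junction genes, was lower by 0.74 and the epithelial Ets factor gene *Elf3* by 0.81 on the log2 scale, while *Trp73*, a paralog of *Trp63*, was higher by 1.10 (limma adjusted p = 2.47e-05, 9.58e-05 and 0.00391). Of the 11 other keratin genes listed, 6 passed the filter on low values, of which 3 were higher and none lower. *Krt14*, the partner of *Krt5* in basal cells, stood at 21.3 to 41.8 TPM in mandibles and 8.78 to 23.4 TPM in FNPs (log2 fold change 1.06, limma adjusted p = 0.000261). *Krt17* was higher by 0.76 and *Krt7* by 0.35 on the log2 scale, and *Krt1*, a keratin of cornifying epidermis, had a change of -0.21 that was not called (limma adjusted p = 0.0163, 0.0430 and 0.759). Of 10 tested genes of the basal lamina and hemidesmosome, 2 were higher and 1 lower, with a median of 0.03.

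Signals of the facial ectoderm split by gene. Of 14, 7 were higher and 4 lower in the mandible. *Shh*, which encodes the hedgehog ligand of oral ectoderm, stood at 7.21 to 12.5 TPM in mandibles and 1.15 to 2.47 TPM in FNPs (log2 fold change 2.14), while *Bmp7* was lower by 1.35, *Fgf17* by 4.28 and *Fgf9* by 1.05 on the log2 scale (limma adjusted p at most 3.15e-08 for all 4). *Fgf17* did not pass the filter on low values in mandibles alone and entered through the FNP.

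Gene lists for the other epithelia in these pieces moved with tissue too, though not all of their genes are particular to epithelium. Of 10 tested genes of oral ectoderm and pharyngeal endoderm, 6 were higher and 3 lower in the mandible, with summed levels of the 12 listed of 356 to 472 TPM in mutant mandibles, 369 to 479 TPM in control mandibles, 151 to 174 TPM in mutant FNPs and 143 to 163 TPM in control FNPs. *Pitx1*, which is also a gene of the mandibular arch, made up most of the mandible sums (levels given above), so these sums are not levels of epithelium alone. Of 15 genes of the olfactory placode and nasal pit, 13 were lower and 2 higher, with a median of -5.86 and sums of 94.9 to 127 TPM in mutant mandibles, 74.7 to 103 TPM in control mandibles, 221 to 263 TPM in mutant FNPs and 152 to 235 TPM in control FNPs. Most of these olfactory genes passed the filter on low values only through the FNP. For them a lower mandible was largely set by that filter, and so was the median. *Neurod1*, a neuronal differentiation factor gene named after its values were seen, was below 0.1 TPM in every mandible library. Of 13 tested neuronal genes, 10 were lower and none higher in the mandible. Of 17 genes of neural crest mesenchyme, 6 were higher and 7 lower with a median of -0.04, of 10 tested muscle genes 8 were higher, and of 12 erythroid genes none was called. Some oral, neuronal and muscle genes likewise passed the filter in a single tissue only. The part of these cell types in the levels of the 9 genes was not tested.

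**Figure D3:**
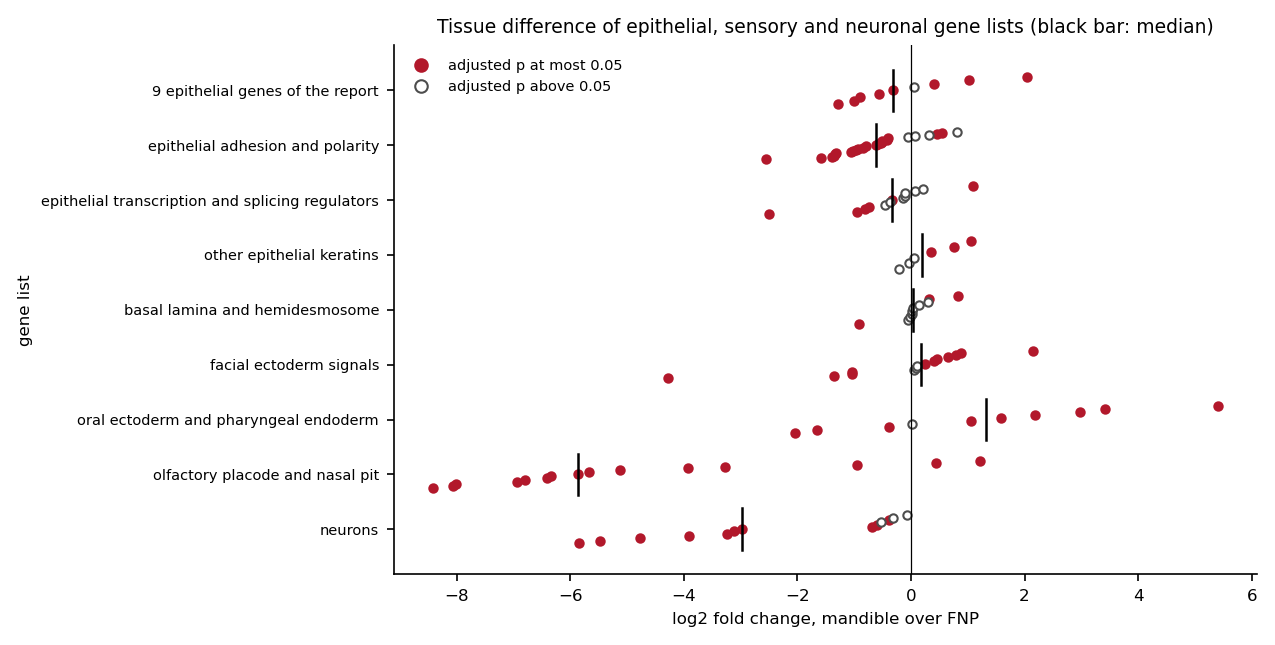
Log2 fold change, mandible over FNP (horizontal axis), of each tested gene of the 9 and of 8 further lists (vertical axis), filled where the adjusted p is at most 0.05, with a black bar at each list's median. The adhesion and polarity genes centre on -0.62 and the olfactory genes on -5.86, while the 3 other keratins that were called lie on the side of *Krt5* and *Krt15*. Most of the olfactory genes passed the filter on low values only through the FNP.

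Mutants were set against controls across both tissues, in a model that also held tissue and litter, and within each tissue. None of the 9 genes was called in any of these limma fits, where 1.33% of all genes were called in both tissues together, 0.106% in the FNP and 0.1% in the mandible. At an unadjusted p under 0.05 there were 2 of the 9 in both tissues together, against 17.4% of all genes, 1 in the FNP, against 13.7%, and 2 in the mandible, against 7.2%. Exact permutation tests on TPM gave two-sided p-values of 0.2 to 1 in the FNP and 0.229 to 1 in the mandible over the 9 genes, and the mutant and control libraries of a tissue overlapped for each of them, while 3.18% of all genes in the FNP and 2.33% in the mandible had no overlap.

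For 7 of the 9 genes the joint difference was small. *Epcam* had a log2 fold change of 0.09, *Cdh1* of -0.07, *Krt8* of -0.14, *Krt18* of -0.12, *Trp63* of -0.04, *Esrp1* of 0.10 and *Grhl3* of 0.05, and the 95% intervals of these 7 lay between -0.38 and 0.28 (limma, adjusted p 0.442 to 0.827). For *Trp63* the interval ran from 0.880-fold to 1.07-fold and for *Esrp1* from 0.977-fold to 1.17-fold. In the FNP alone *Epcam* averaged 86.3 ± 5.43 TPM in mutants and 83.1 ± 6.46 TPM in controls (SD, n = 4 each). On the gene values, with litter as covariate, the difference was 0.21 on the log2 scale, with an unadjusted p of 0.00921 that did not pass the adjustment (limma adjusted p = 0.234), and the same model on TPM gave 0.07 (limma adjusted p = 0.682). In the mandible *Epcam* averaged 35.2 ± 5.32 TPM in mutants and 35.3 ± 4.95 TPM in controls (SD, n = 4 each), a log2 fold change of -0.04.

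*Krt5* and *Krt15* had the largest joint differences, 0.62 (SE 0.270, 95% interval 0.05 to 1.19) and 0.53 (SE 0.186, 95% interval 0.14 to 0.93) on the log2 scale, and neither passed the adjustment (limma, unadjusted p = 0.0358 and 0.0107, adjusted p = 0.251 and 0.159). In mandibles *Krt5* averaged 34.3 ± 12.4 TPM in mutants and 28.1 ± 16.1 TPM in controls, and *Krt15* 25.3 ± 6.48 TPM in mutants and 21.1 ± 12.0 TPM in controls (SD, n = 4 each). In FNPs *Krt5* averaged 17.1 ± 9.90 TPM in mutants and 16.0 ± 11.2 TPM in controls, and *Krt15* 5.70 ± 1.66 TPM in mutants and 5.14 ± 2.24 TPM in controls (SD, n = 4 each). The size of these differences varied with which embryos were in the fit. With each embryo left out it stayed positive, at 0.29 to 1.04 for *Krt5* and 0.35 to 0.86 for *Krt15*. Without mutant embryo 3 the log2 fold change was 0.29 for *Krt5* and 0.35 for *Krt15*, and without control embryo 2 it was 0.37 for *Krt15*. Without mutant embryo 6 it was 1.04 for *Krt5* (limma adjusted p = 0.0882) and 0.86 for *Krt15* (limma adjusted p = 0.0378), so that *Krt15* was then called. Litter 2 then held no mutant, so these estimates came from litter 1. A fit of litter 1 alone gave the same log2 fold changes and called neither gene (limma adjusted p = 0.142 for *Krt5* and 0.0805 for *Krt15*). Without the litter covariate it was 0.31 for *Krt5* (limma adjusted p = 0.910) and 0.31 for *Krt15* (limma adjusted p = 0.854). The joint fit counted both tissues of an embryo as separate libraries. With tissues summed per embryo the log2 fold change was 0.63 (SE 0.314) for *Krt5* and 0.61 (SE 0.237) for *Krt15* (limma adjusted p = 0.431 and 0.346).

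Within litter 2 the mean log2 difference of mutant from control was -0.10 for *Krt5* and 0.02 for *Krt15* in the mandible and -0.18 for *Krt5* and -0.12 for *Krt15* in the FNP, from 1 mutant and 2 controls. Within litter 1 it was 1.11 for *Krt5* and 1.05 for *Krt15* in the mandible and 0.96 for *Krt5* and 0.67 for *Krt15* in the FNP, from 3 mutants and 2 controls. There each mutant lay above both controls in each tissue for both genes. The share of all genes that separate in this way within litter 1 was not counted. Both tissues come from the same embryos and the 2 genes varied together, so these are not separate observations. The difference between the litters was tested as an interaction of litter and genotype class, a test added after the data were seen in which the lone litter 2 mutant is assumed to vary like the other embryos. Both tissues of an embryo counted as separate libraries in this test, so the lone mutant entered as 2 units. The interaction was -1.18 for *Krt5* and -0.91 for *Krt15* on the log2 scale. Neither passed the adjustment (limma adjusted p = 0.655 for *Krt5* and 0.632 for *Krt15*, unadjusted p = 0.0320 and 0.0137), and none of the 9 genes and 0% of all genes were called. At an unadjusted p under 0.05 there were 2 of the 9 genes, against 7.58% of all genes.

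None of the 25 adhesion and polarity genes, the 13 regulators, the 6 keratins, the 10 genes of the basal lamina, the 14 ectoderm signals, the 10 oral and endodermal genes and the 15 olfactory genes was called between mutants and controls in both tissues together, and their medians lay between -0.06 and 0.16 on the log2 scale. The smallest p-values among these lists were those of the transcription factor genes *Ebf2* (log2 fold change 0.49, limma adjusted p = 0.0942), *Tfap2c* (0.27, 0.148), *Ebf3* (0.26, 0.171) and *Pax9* (0.49, 0.20). The smallest among the adhesion genes was that of the tight junction gene *Cldn7* (-0.32, limma adjusted p = 0.207). Of the lists for other cell types, the neuronal, mesenchymal, endothelial, erythroid and muscle genes gave no call, and 1 of 11 tested macrophage genes, the complement gene *C1qa*, was higher in mutants (0.75, limma adjusted p = 0.0442), where 1.33% of all genes were called. *C1qa* was low, with a mean log2 value of 4.36 in the mandible and 4.76 in the FNP. It was not called in the mandible or the FNP alone (limma adjusted p = 0.624 and 0.332).

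The 4 keratin genes also differed between the litters. In the joint model litter 2 differed from litter 1 in 26.1% of all genes, 10.9% higher and 15.2% lower, and in 4 of the 9 genes, 2 higher and 2 lower. *Krt5* was 2.34-fold and *Krt15* 1.85-fold higher in litter 2, log2 fold changes of 1.23 (SE 0.279) and 0.88 (SE 0.192), and *Krt8* was 1.36-fold and *Krt18* 1.40-fold lower, log2 fold changes of -0.45 (SE 0.114) and -0.48 (SE 0.113). The limma adjusted p-values of *Krt5*, *Krt15*, *Krt8* and *Krt18* were 0.00458, 0.00344, 0.00929 and 0.00559, and 0.00628, 0.00512, 0.0170 and 0.0111 with embryo as a random block. That block took a single correlation for all genes, while *Krt5* deviated from its group means with the same sign in both tissues of each embryo. These p-values may therefore be too small. The contrast sets 3 embryos against 5, and no fit with tissues summed per embryo was run for it. Without embryo 7 the *Krt8* change was -0.37 with an adjusted p of 0.0557, above the threshold. *Epcam*, *Cdh1*, *Trp63*, *Esrp1* and *Grhl3* were not called, with log2 fold changes of -0.08 to -0.04. With 2 litters, all that differed between them besides genotype class and tissue, age within the day included, cannot be told apart from litter.

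The single libraries show that 1 embryo did not follow its litter. In the mandible *Krt5* stood at 39.4, 40.6 and 43.2 TPM in litter 2 embryos 6, 7 and 8, against 17.0, 11.6, 49.5, 25.1 and 23.2 TPM in litter 1 embryos 1 to 5. In the FNP it stood at 22.6, 28.2 and 22.6 TPM in litter 2 and 5.42, 7.73, 28.4, 8.56 and 9.07 TPM in litter 1. In both tissues mutant embryo 3 of litter 1 lay with or above litter 2, and *Krt15* placed the same embryo there, at 30.9 TPM in the mandible and 7.61 TPM in the FNP. In the mandible the same embryos 3, 6, 7 and 8 had the lowest *Krt8*, at 21.7 to 23.1 TPM, while embryos 1, 2, 4 and 5 had 32.2 to 40.7 TPM. In the FNP *Krt8* of embryo 3, at 56.2 TPM, lay among the values of litter 1. Without embryo 3 the litter difference was 1.45 for *Krt5*, 1.01 for *Krt15*, -0.49 for *Krt8* and -0.52 for *Krt18* on the log2 scale.

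**Figure D4:**
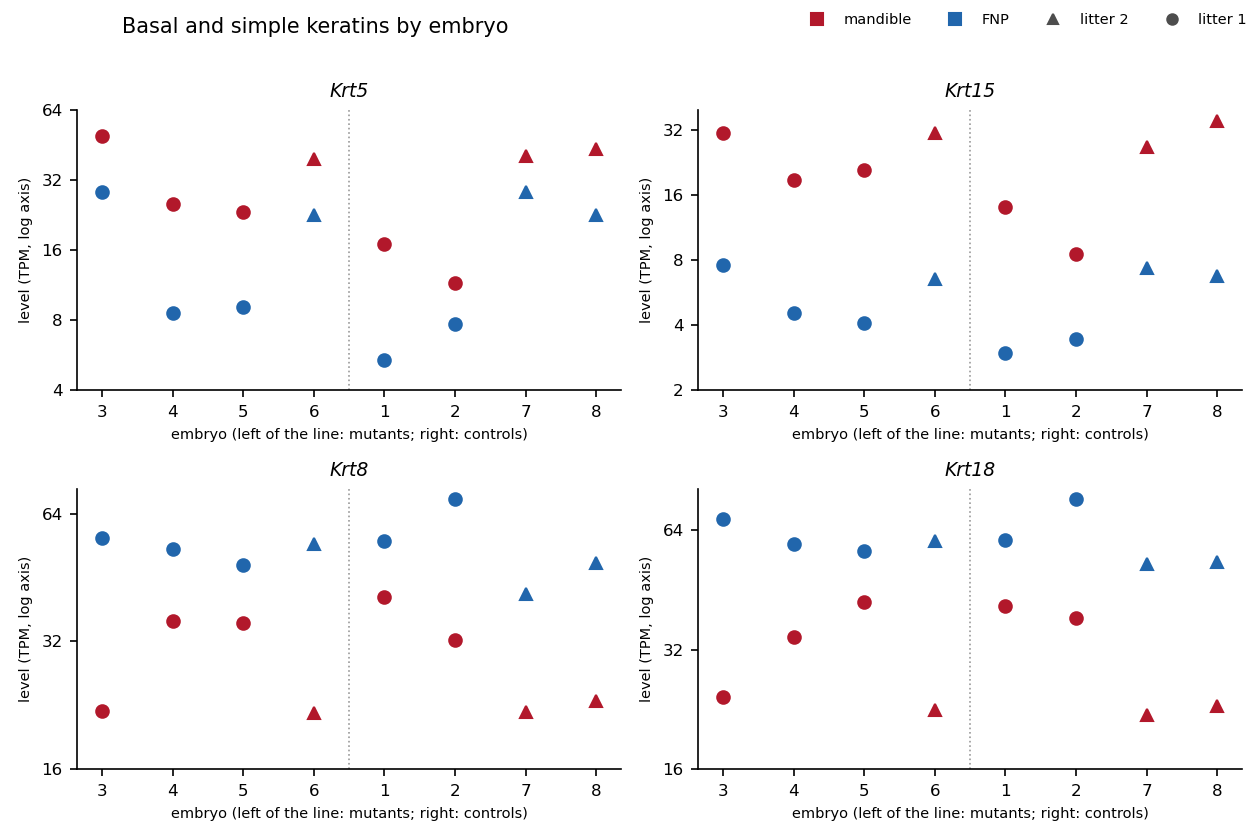
Levels of *Krt5*, *Krt15*, *Krt8* and *Krt18* in TPM (vertical axes, log scale) for mutant embryos 3 to 6 and control embryos 1, 2, 7 and 8 (horizontal axes), in the mandible (red) and the FNP (blue), with triangles for litter 2 and circles for litter 1. Embryo 3 of litter 1 has 49.5 TPM of *Krt5* in its mandible, above the 39.4 to 43.2 TPM of litter 2, and 21.9 TPM of *Krt8*, close to their 21.7 to 23.1 TPM.

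Some of the marker lists are given between the litters as well, beside the 10.9% of all genes that were higher and the 15.2% that were lower in litter 2. Counts of the other lists, those of epithelial adhesion, regulators, other keratins and ectoderm signals among them, are not reported here. Of 17 mesenchyme genes 8 were higher and 3 lower in litter 2, of 12 endothelial genes none was higher and 4 were lower, of 10 tested muscle genes 2 were higher, and of 10 tested genes of the basal lamina and hemidesmosome 3 were higher. The fibrillar collagen gene *Col1a1* was higher by 1.07, the embryonic globin gene *Hbb-bh1* lower by 0.62 and the adult globin gene *Hbb-bt* higher by 1.15 on the log2 scale (limma adjusted p = 0.000497, 0.00334 and 0.0193), 3 genes named after their values were seen. *Hbb-bt* in the mandible was 43.7, 52.3 and 79.0 TPM in litter 2 embryos 6, 7 and 8, against 22.9, 12.5, 85.3, 26.5 and 29.3 TPM in litter 1 embryos 1 to 5, so embryo 3 was the highest here too. The other erythroid genes are not reported here, so the 2 globin genes named do not show how globin genes moved as a set. The part of these litter differences in the keratin levels was not tested.

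After the mean of each tissue and genotype class was removed, the 9 genes did not vary as one. *Krt5* and *Krt15* deviated with the same sign in 16 of 16 libraries (r = 0.94) and *Krt8* and *Krt18* in 15 of 16 (r = 0.95), while *Krt18* and *Krt5* shared a sign in 3 of 16 (r = -0.60). *Cdh1* and *Esrp1* shared one in 13 of 16 (r = 0.78), and *Trp63* shared one with *Krt5* in 4 of 16 (r = -0.30). These are descriptions over 16 libraries that share embryos and litters. The deviations reached 1.23 in size on the log2 scale for *Krt5*, and for *Esrp1* none exceeded 0.24.

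**Figure D5:**
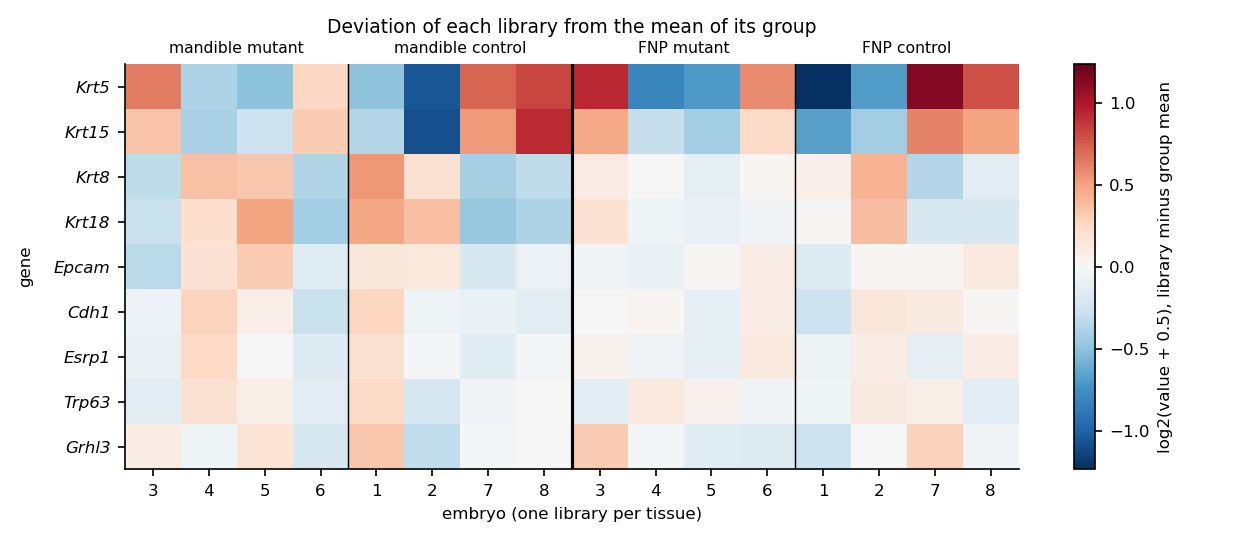
Deviation of each library from the mean of its tissue and genotype class on log2(value + 0.5) (colour), for the 9 genes (vertical axis) and 16 libraries by embryo (horizontal axis). *Krt5* and *Krt15* share a sign in 16 of 16 libraries, and *Krt8* and *Krt18* in 15 of 16.

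Genes most like the mean of the 9 over the 16 libraries included *Nectin4* (Pearson r = 0.872), *Wnt4* (0.847), *Nyap1* (0.827), *Stxbp3* (0.814) and *Fhit* (0.808). With group means removed they included *Wnt4* (0.925), *AI661453* (0.885), *Perp* (0.883), *Fhit* (0.875) and *Nectin4* (0.870). *Nectin4* encodes an adhesion molecule of epithelial junctions. Profiles of *Krt5* and *Krt8* alone, chosen after their values were seen, gave other genes. Most like *Krt5* with group means removed were *6330403K07Rik* (0.986), *Pkp1* (0.980), *Wnt7b* (0.977), *Postn* (0.976), *Osr2* (0.973) and *Olfml3* (0.973), of which *Pkp1* encodes a desmosomal plakophilin and *Postn* a matrix protein of mesenchyme. Most like *Krt8* were *Prss8* (0.966), *Cldn6* (0.946), *Espn* (0.923), *Emb* (0.916), *Cldn4* (0.912) and *Carhsp1* (0.908), among them the claudin genes of tight junctions and the membrane protease gene *Prss8*. These likenesses were taken over 16 libraries from 8 embryos and carry no test.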

How the data were processed

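FNPs and mandibles of 8 separate embryos from 2 litters, 4 mutants and 4 controls, were profiled by bulk RNA sequencing in 16 libraries. The authors quantified reads against mm10 with Salmon 1.5.0 and summed transcripts to genes in sleuth 0.30.0-4. The deposited gene values are a signal: for each gene, estimated counts scaled by a library size factor. They did not resolve into whole reads (at best 20.1% to 23.4% of low values of a library were whole multiples of 1 step), so no count model was used. The deposited TPM table holds a score, TPM scaled by a factor of each library, with sums of 920899 to 1069140. The deposited tables of the authors' own comparisons hold effect sizes, standard errors, p-values, q-values, their −log10 and fold changes, and were not used.

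A gene entered a fit if 4 or more of its libraries had values of 10 or above, and was tested with limma 3.58.1 (R 4.3.3, variance trend) on log2(value + 0.5), a scale that understates changes of low genes, with Benjamini-Hochberg adjustment over all genes tested. All 9 genes passed in each fit. Covariates followed the study's methods. Exact permutation tests of TPM, two-sided, were run for single genes. Both tissues of an embryo come from 1 animal, so they are paired: the same-embryo correlation of deviations from group means was 0.0993 to 0.234. Among the mandibles of its genotype class, each FNP library correlated best with that of its own embryo, in 8 of 8. Litter was not removed from these deviations. Alternatives were another pseudocount, no filter, equal library totals, TPM, no variance trend, no litter term, an embryo block, tissues summed per embryo, subsets of controls, 1 litter and each embryo left out. The fits were run on simulated data with independent noise for each gene and library. That noise held no pairing of tissues, no litter effect and no correlation between genes, so the simulation does not cover these.

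The 9 genes and the 13 gene lists (179 genes) were chosen with earlier results of these data known. Genes named are the 9, up to 4 per list with the smallest adjusted p by tissue and by genotype, and the 6 most like the mean of the 9, and any other is marked in the text as picked with its values known. Not every gene that met this rule is reported here. Gene coordinates (1-based, GRCm38) came from GENCODE vM21. Python 3.11.15 and matplotlib 3.10.9 made the figures.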

Additional observations from a re-analysis of the deposited data

Results flagged for a closer look

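Among 36 groups of 4 libraries, 1 library stood apart from the others of its group. *Cdh1* in the mandible of control embryo 1 was 24.0 TPM, while the mandibles of control embryos 2, 7 and 8 had 19.3, 19.3 and 18.5 TPM, and its gap to the next library was 0.851 of the group's range, above the 95% critical value of Dixon's test for 4 libraries. Chance marks about 1 in 20 groups in this way.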

How the results depend on the processing

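Of 108 results, 89 kept their side of the threshold, or for counts a similar number, under each of their alternatives. None was reversed past a threshold. Small changes that were not called could still change sign, as did that of *Grhl3* in the joint genotype comparison, at -0.05 to 0.18 on the log2 scale. The number of the 9 genes called higher in mutants in both tissues together was 0 under the other alternatives and 0 to 1 with each embryo left out, the 1 being *Krt15* without embryo 6. The number called lower in litter 2 was 1 to 2 with each embryo left out, and the number called higher in the mandible within controls was 1 to 3. The alternatives for the litter, litter-by-genotype and within-class comparisons were chosen after seeing the data. With a replicate block for embryo, the tissue comparison still called 3 of the 9 genes higher and 5 lower and the joint genotype comparison called 0. Within controls the block ended the call of *Cdh1* (adjusted p = 0.0838) and made one of *Krt5* (adjusted p = 0.00441), and it changed no other call among the 9 in the 7 comparisons fitted with it. Over all genes the joint genotype comparison called 195, 113 with the replicate block, 28 without litter, 91 without the variance trend, 20 with tissues summed per embryo, 24 with only Cre-positive and 36 with only Cre-negative controls, and 41 to 367 with an embryo left out. The FNP comparison called 15 genes and 29 on TPM, the mandible comparison 14 and 7 with only Cre-positive controls, the tissue comparison 4352 and 2791 in litter 1 alone, the litter comparison 3824 and as few as 2329 without embryo 8, the tissue interaction 0 and 1 without embryo 2, and the litter interaction 0 and up to 2 with an embryo left out, where embryo 6, the lone mutant of litter 2, could not be left out. Low joint counts under subsets of controls come with fewer libraries, and for the other settings the cause was not tested. Without counts, depth sets no interval here, and 4 embryos per class from 2 litters limit what can be seen of *Krt5* and *Krt15*, whose spread among embryos was the widest of the 9.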
